A study of Mus musculus with 18 samples.

Results

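The subject is the genotype difference in one step of the maturation of invariant natural killer T (iNKT) cells in the mouse thymus: for each gene, the S3 minus S2 change in Mst1KO cells minus the S3 minus S2 change in WT cells. It rests on 12 of the 18 arrays of the series, 3 in each of 4 groups, and was computed for 13034 genes, each represented by its brightest probe set that carried a single gene symbol. The groups were Mst1KO S3, Mst1KO S2, WT S3 and WT S2. Mst1KO mice are Cd4CreMst1fl/fl: Cre recombinase under Cd4 control removes the floxed Mst1 alleles, the gene now named Stk4, in cells that express Cd4, which includes double-positive thymocytes. WT mice are labelled WT, and the strain of both genotypes is given as C57BL/6. The animals' ages, and whether WT mice carried the Cre transgene, are not stated in the sources at hand. All cells were TCRb+, bound the PBS57-loaded CD1d tetramer and lacked CD24. S2 cells were CD44+NK1.1- and S3 cells CD44+NK1.1+. S1 cells (CD44-NK1.1-, 6 arrays) entered only the gene filter, the choice of probe set, the estimate of each gene's spread and a side comparison. Before the sort, thymocytes went through a CD8 microbead step that the labels call positive selection, and the 1 to 20 ng of RNA per sample was amplified. The design lists 3 mice per genotype, but no label ties a replicate number to an animal. The p-values therefore reflect the spread among the samples, part of which may be technical.

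iNKT cells develop from double-positive thymocytes that are selected on CD1d. They pass from proliferating precursors through CD44+ cells, a mixture that holds NKT2 and NKT17 effectors and precursors of NKT1 cells, to NK1.1+ cells, which are mostly quiescent NKT1 cells with NK receptors, T-bet and interferon gamma. MST1 is a Hippo pathway kinase. In lymphocytes it acts with RAPL and MOB1 on integrin adhesion, cell migration and thymic egress, and on FOXO transcription factors, while the canonical branch acts through LATS kinases on YAP.

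Values are log2 expression, changes are log2 differences ± SE with 3 arrays per group, and a gene is called at a limma adjusted p under 0.05, for the interaction unless another comparison is named. Array medians lay between 4.81 and 4.93 and within-group correlations across probe sets between 0.976 and 0.986. Stk4 had 7.67, 7.74 and 7.56 at S3 and 7.54, 7.49 and 7.40 at S2 in Mst1KO cells, against 7.80, 8.20 and 8.13 at S3 and 7.91, 7.73 and 7.83 at S2 in WT cells. The Mst1KO arrays lay below the WT arrays at both stages, without passing the test at either (adjusted p = 0.0767 at S3 and 0.173 at S2), and the interaction was -0.041 ± 0.16 (adjusted p = 0.955). The probe set reads the whole transcript, parts that a conditional deletion can leave included, and is a weak check of the labels. Of the genes that set the gates, Klrb1c, which encodes NK1.1, had an interaction of 0.60 ± 0.33 (adjusted p = 0.524) and Cd44 of 0.12 ± 0.19 (adjusted p = 0.869). In sorted bulk cells, a gene read in fewer cells and a gene read at less RNA per cell cannot be told apart.

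The S2 to S3 change differed between the genotypes for 48 of the 13034 genes, 0.368% of those tested. The Mst1KO change lay above the WT change for 34 (0.261%) and below it for 14 (0.107%), and 1464 genes (11.2%) had an unadjusted p under 0.05. The 34 included Myb, Irf4, Il17rb, Emb, S1pr1, Itgb3, Pde5a and Tlr1, whose RNA was lower at S3 than at S2 in WT cells by more than in Mst1KO cells. The 14 included Ifitm1, Ifitm2, Sulf2 and Atp8a2, whose RNA rose in WT cells and rose less, or passed no test, in Mst1KO cells. The size of the 48 differences ran from 0.63 to 3.18, with a median of 1.21, while the median SE over all genes was 0.19. Over all genes the median difference was -0.0022, and 49.7% were above 0.

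**Figure D1:**
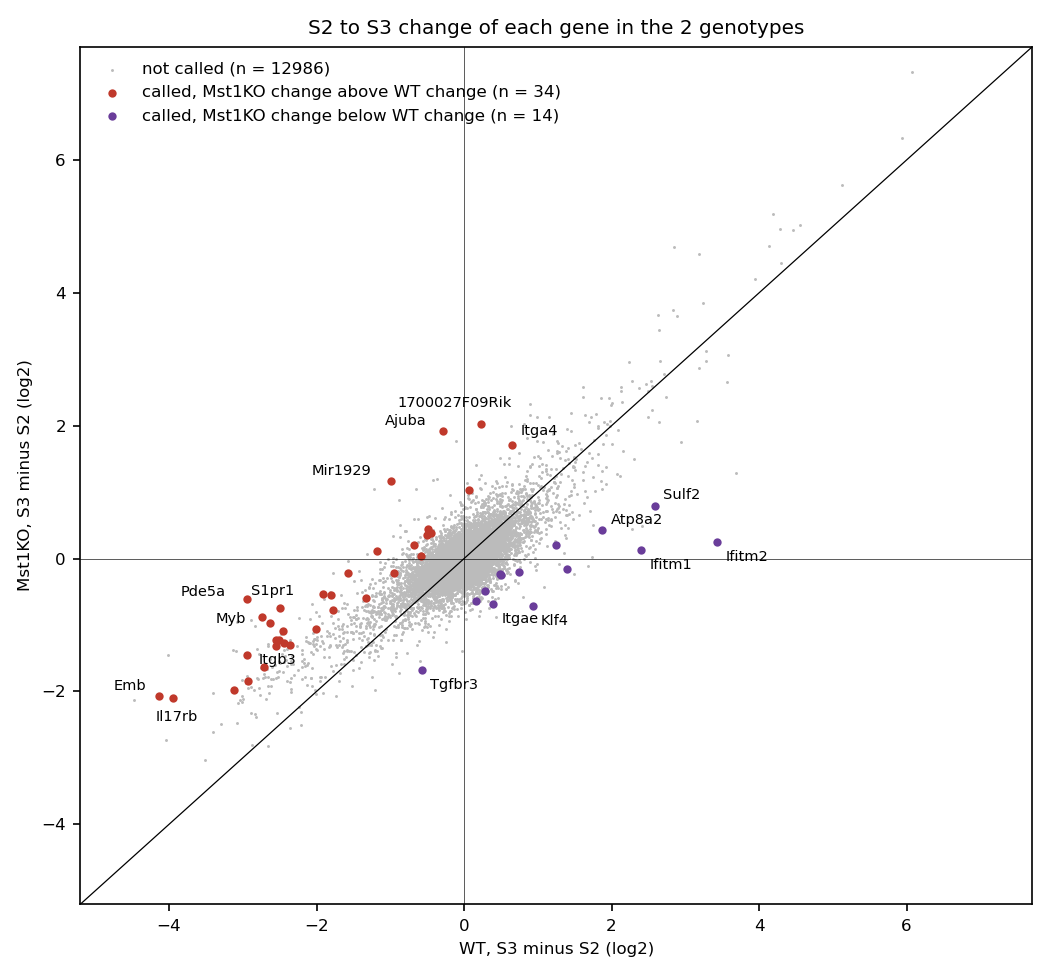
Each point is 1 of 13034 genes, with the WT change from S2 to S3 on the horizontal axis and the Mst1KO change on the vertical axis (both log2, means of 3 arrays per group); the diagonal marks equal change. The 34 called genes above the diagonal lie mostly in the lower left, where both genotypes fell and WT more, and the 14 below it mostly on the right, where WT rose.

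Most of the stage change was shared. Across genes the Mst1KO and WT changes correlated at r = 0.812, a description in which genes are not replicates, and the slope of the Mst1KO on the WT change by total least squares was 0.832. In Mst1KO cells 2240 genes (17.2%) were called between S3 and S2, 1044 higher (8.01%) and 1196 lower (9.18%) at S3. In WT cells 3073 (23.6%) were called, 1356 higher (10.4%) and 1717 lower (13.2%). In the 1547 genes called in both in the same direction, the Mst1KO change, turned to the direction of the stage change, was smaller by a median of 0.092, and it was the smaller for 64.3%. The choice of the set moves this value: over the genes called in WT the median was -0.21, and over those called in Mst1KO 0.042, each set being chosen by that genotype's own calls.

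The number of called genes depended on single arrays and on the estimate of the spread. Without WT S3 replicate 3 it was 93 (65 higher, 28 lower), and without Mst1KO S3 replicate 3 it was 25 (19 higher, 6 lower). With the 12 S2 and S3 arrays alone, 15 genes were called, 13 of them among the 48: Ifitm1, Pdlim1, Myb, Il17rb, S1pr1, Itgb3, Pde5a, Tlr1, Rubcnl, Sulf2, Ddx43, Mcfd2 and 1700027F09Rik. Of these, Ifitm1 and 1700027F09Rik passed the intensity filter only through the group in which each was high. Repeated quantile normalization called 31 genes higher and 20 lower, so that 60.8% of calls were higher, against 70.8% as deposited. Of the 48 genes, 24 were called in each of the 12 fits that left out 1 array, 12 in 6 to 11 of them, and 12 in fewer. In simulated data 67, 67 and 66 genes were given differences of 0.5, 1 and 2, with independent normal noise for each gene. Of these 10.4%, 68.7% and 100% were recovered, so a gene outside the 48 may still differ by less. Real noise may be correlated between genes, and the number of changed genes may differ, so these rates need not hold here.

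The classes of called genes show where the difference lay. For 20 of the 48 the stage change was called in both genotypes in the same direction and was smaller in Mst1KO. For 16 it was called in WT alone, for 6 in Mst1KO alone (Ajuba, 1700027F09Rik, Ddx43, Mir665, Smad1 and Itgae), and for 2, Itga4 and Tgfbr3, in both and larger in Mst1KO. For 4 genes, Mir1929, Izumo1r, Acot7 and Klf4, the stage changes were called in opposite directions, and no other gene of the 13034 had that pattern. Between genotypes at 1 stage, 443 genes (3.4%) were called at S3, 306 higher (2.35%) and 137 lower (1.05%) in Mst1KO, and 152 (1.17%) at S2, 93 higher (0.714%) and 59 lower (0.453%). Of the 48, 37 were called at S3 alone, 4 at both stages (Tlr1, Itga4, Lgals1 and Atp8a2) and 7 at S2 alone (Mir1929, Matn2, Ddx43, Izumo1r, 1600014C10Rik, Mcfd2 and Klf4). These classes use the same 12 arrays as the interaction and describe it; they are not independent of it.

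**Figure D2:**
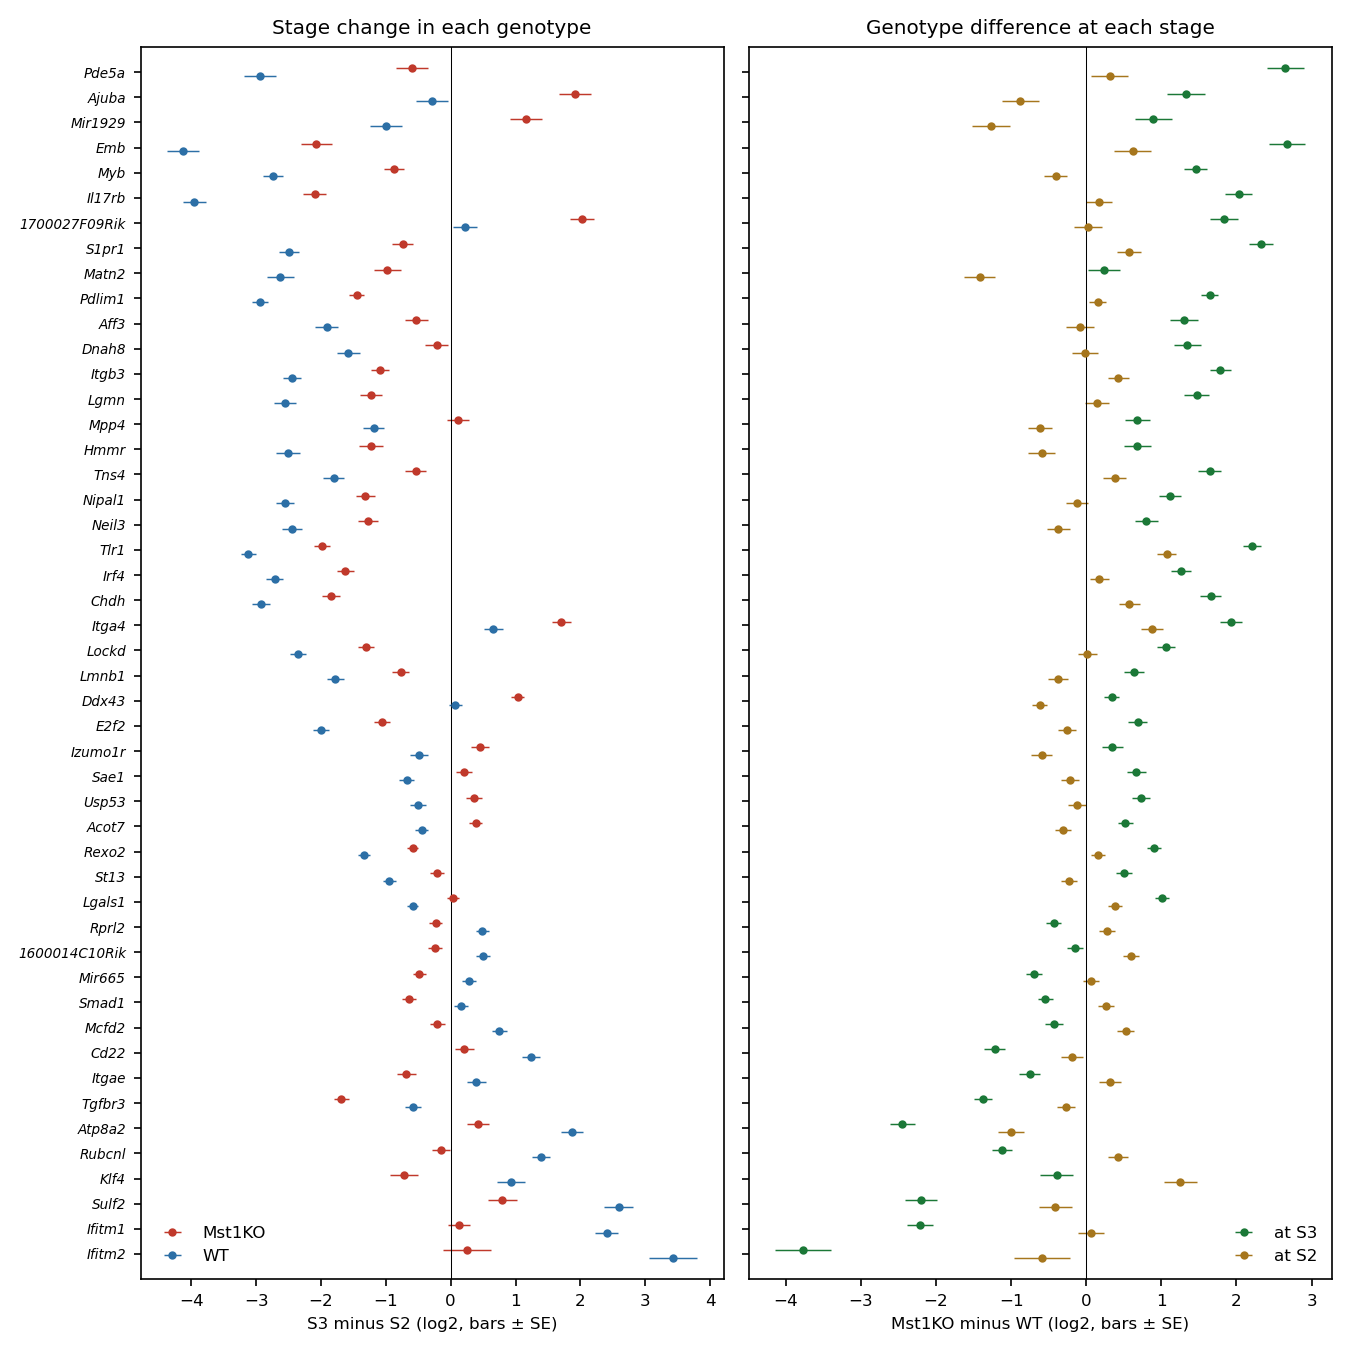
The 48 called genes ordered by their interaction. The left panel gives S3 minus S2 in Mst1KO and WT and the right panel Mst1KO minus WT at S3 and S2 (log2, points are differences of means of 3 arrays, bars SE). For 39 genes the WT change is the larger in size, and for 41 the genotype difference at S3 is larger in size than at S2. Both counts describe genes chosen by the interaction on these same arrays, and the matching shares over all genes were not counted.

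Ifitm2 had the greatest difference in size of the 48 called genes. Ifitm2 and its neighbour Ifitm1 encode interferon-induced transmembrane proteins that hinder the entry of enveloped viruses. Ifitm2 had 3.77, 5.15 and 5.51 at S3 and 3.92, 4.87 and 4.88 at S2 in Mst1KO cells, against 8.80, 8.30 and 8.63 at S3 and 5.23, 4.84 and 5.37 at S2 in WT cells. The WT S3 arrays stood above all other arrays, and the Mst1KO arrays of S3 and S2 overlapped. Ifitm2 changed by 0.25 ± 0.37 in Mst1KO and 3.43 ± 0.37 in WT cells, a difference of -3.18 ± 0.52 (adjusted p = 0.0114). Ifitm1 had 3.68, 3.74 and 3.69 at S3 and 3.95, 3.28 and 3.49 at S2 in Mst1KO cells, against 5.54, 5.96 and 6.24 at S3 and 3.57, 3.65 and 3.29 at S2 in WT cells, so again the 3 WT S3 arrays stood alone. Its changes were 0.13 ± 0.17 in Mst1KO and 2.41 ± 0.17 in WT cells, and the difference -2.28 ± 0.25 (adjusted p = 0.000585), and it was the 1 gene called when a difference of at least 1.5-fold was required. Ifitm1 was above its array's median on the 3 WT S3 arrays and on no other array, so it was tested only through the group in which it was high. Ifitm2 was above it on 8 of the 12 arrays. Values near or below the median are compressed. Ifitm3, their neighbour, had 5.31, 5.09 and 5.29 at S3 and 5.73, 4.88 and 5.03 at S2 in Mst1KO cells, against 7.61, 7.47 and 6.69 at S3 and 5.36, 5.14 and 6.07 at S2 in WT cells. Its direction was that of the other two, with an interaction of -1.72 ± 0.38, but it was not called (adjusted p = 0.0728). It was called lower without WT S3 replicate 3 and without WT S2 replicate 3. These genes are close paralogs, and the probe sets could share signal.

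The 3 promoters are shown because the genes lie beside each other on chromosome 7 and had the same direction. Each 300-base window runs 5′ to 3′ on the gene's strand across the start site, from RefSeq (GRCm38.p6). Capitals mark matches to GAAA, any 2 bases and GAAA again, a core of the interferon-stimulated response element, searched on both strands. The windows are chr7:140967826-140968125 on the plus strand for Ifitm1, chr7:140955912-140956211 on the minus strand for Ifitm2 and chr7:141010695-141010994 on the minus strand for Ifitm3.
Ifitm1: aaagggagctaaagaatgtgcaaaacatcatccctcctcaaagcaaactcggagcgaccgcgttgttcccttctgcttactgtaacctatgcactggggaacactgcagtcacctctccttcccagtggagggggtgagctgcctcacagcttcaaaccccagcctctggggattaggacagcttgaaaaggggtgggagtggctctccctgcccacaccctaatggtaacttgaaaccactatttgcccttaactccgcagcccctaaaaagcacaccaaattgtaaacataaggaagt
Ifitm2: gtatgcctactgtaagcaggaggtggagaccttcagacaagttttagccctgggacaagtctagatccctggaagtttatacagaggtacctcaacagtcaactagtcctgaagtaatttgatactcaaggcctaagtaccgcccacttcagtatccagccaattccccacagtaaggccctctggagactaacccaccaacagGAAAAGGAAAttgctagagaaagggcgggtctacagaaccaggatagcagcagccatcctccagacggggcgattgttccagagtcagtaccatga
Ifitm3: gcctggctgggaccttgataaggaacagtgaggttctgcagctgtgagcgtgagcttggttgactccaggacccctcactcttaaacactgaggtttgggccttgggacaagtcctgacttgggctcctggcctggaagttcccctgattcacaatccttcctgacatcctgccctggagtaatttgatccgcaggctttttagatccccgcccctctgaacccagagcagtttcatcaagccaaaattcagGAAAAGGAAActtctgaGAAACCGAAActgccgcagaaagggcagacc
The Ifitm2 window held 1 match and the Ifitm3 window 2, and no match to these letters lay in the Ifitm1 window. Of 32851 promoters of the same length, 1131 (3.44%) held the motif. A promoter was listed for 33 of the 48 called genes, and Ifitm2 was the 1 of them with the motif. A match describes the letters and not a bound site.

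The wider interferon-stimulated list was measured too. Of 31 measured members of that list, Ifitm1 and Ifitm2 were called lower and none higher, against 0.107% and 0.261% of all genes. The median interaction was -0.15 (-0.21 to -0.033), against -0.0022 over all genes. The range in brackets after a list's median covers the 12 fits that each left out 1 array. Without Mst1KO S2 replicate 3 the interferon-stimulated median was nearest to 0, at -0.033. Isg15 was at 0.0014 ± 0.24 (adjusted p = 0.999), Ifit1 at -0.26 ± 0.20 (adjusted p = 0.669) and Irf7, a regulator of interferon genes, at -0.38 ± 0.19 (adjusted p = 0.475).

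Genes of migration and adhesion were called, S1pr1 among them. S1pr1 encodes the sphingosine 1-phosphate receptor that lets mature thymocytes leave the thymus. S1pr1 had 8.67, 8.73 and 8.96 at S3 and 9.57, 9.48 and 9.54 at S2 in Mst1KO cells, against 6.68, 6.69 and 6.03 at S3 and 8.80, 9.02 and 9.06 at S2 in WT cells. It fell in both genotypes, and at both stages every Mst1KO array lay above every WT array, by far more at S3. S1pr1 changed by -0.74 ± 0.16 in Mst1KO and -2.49 ± 0.16 in WT cells, a difference of 1.75 ± 0.23 (adjusted p = 0.00191). Among the 21 measured genes of the quiescence and egress list it was the only one called, against 0.368% of all genes. Klf4, which was called lower, was not on that list. Of the 21, 5 had a positive interaction, against 49.7% of all genes, with a median of -0.15 (-0.31 to -0.11), lowest without WT S3 replicate 3. At an unadjusted p under 0.05, 2 were higher and 5 lower, against 11.2% of all genes in either direction. Klf2, which activates S1pr1 in T cells, was at -0.0083 ± 0.29 (adjusted p = 0.995), and Ccr7 at -0.20 ± 0.28 (adjusted p = 0.846).

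Of 19 measured integrin genes 2 were called higher and 1 lower, against 0.261% and 0.107% of all genes. Their median interaction was 0.15 (0.041 to 0.18), lowest without WT S2 replicate 1. At an unadjusted p under 0.05, 5 were higher and 2 lower, against 11.2% of all genes in either direction. Itgb3, the beta chain of the vitronectin receptor, had 8.04, 8.45 and 8.67 at S3 and 9.47, 9.66 and 9.31 at S2 in Mst1KO cells, against 6.69, 6.58 and 6.53 at S3 and 9.15, 9.07 and 8.94 at S2 in WT cells. It fell in both genotypes, and the Mst1KO S3 arrays stayed above the WT S3 arrays with a clear gap. Itgb3 changed by -1.09 ± 0.14 in Mst1KO and -2.45 ± 0.14 in WT cells, a difference of 1.36 ± 0.20 (adjusted p = 0.00551). Itga4, the alpha chain of VLA-4, had 10.71, 10.83 and 10.85 at S3 and 8.96, 9.15 and 9.15 at S2 in Mst1KO cells, against 8.58, 8.88 and 9.13 at S3 and 8.07, 8.30 and 8.26 at S2 in WT cells. It rose in both genotypes, more in Mst1KO, and the Mst1KO arrays lay above the WT arrays at both stages. Itga4 changed by 1.71 ± 0.15 in Mst1KO and 0.65 ± 0.15 in WT cells, a difference of 1.05 ± 0.21 (adjusted p = 0.0336), and this call held in only 2 of the 12 fits that left out 1 array, with adjusted p up to 0.108. Itgae, the alpha chain of CD103, which binds E-cadherin on epithelium, had 10.04, 9.79 and 9.59 at S3 and 10.72, 10.42 and 10.35 at S2 in Mst1KO cells, against 10.72, 10.58 and 10.39 at S3 and 10.34, 9.97 and 10.21 at S2 in WT cells. It fell in Mst1KO cells, whose arrays were the higher at S2 and the lower at S3. The changes of Itgae were -0.68 ± 0.15 in Mst1KO and 0.39 ± 0.15 in WT cells, and the difference -1.08 ± 0.21 (adjusted p = 0.0272), called in 5 of the 12 such fits (adjusted p up to 0.0991).

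Further genes of adhesion, matrix and cytoskeleton were called. Pdlim1, an adaptor that links alpha-actinin to kinases, had 7.52, 7.53 and 7.51 at S3 and 8.88, 9.01 and 9.01 at S2 in Mst1KO cells, against 5.57, 5.92 and 6.13 at S3 and 8.63, 8.90 and 8.92 at S2 in WT cells. The genotypes overlapped at S2, and all Mst1KO S3 arrays lay far above the WT S3 arrays. Pdlim1 changed by -1.45 ± 0.12 in Mst1KO and -2.94 ± 0.12 in WT cells, a difference of 1.49 ± 0.16 (adjusted p = 0.000585). Tns4, a tensin of focal adhesions, changed by -0.54 ± 0.16 in Mst1KO and -1.81 ± 0.16 in WT cells, a difference of 1.27 ± 0.22 (adjusted p = 0.0154), with the same pattern. Tns4 was above its array's median on 2 of the 3 WT S3 arrays, and values near or below the median are compressed. Emb, embigin, a membrane glycoprotein that escorts monocarboxylate transporters, had 8.34, 8.31 and 8.23 at S3 and 10.67, 10.13 and 10.29 at S2 in Mst1KO cells, against 5.35, 6.42 and 5.08 at S3 and 9.84, 9.95 and 9.45 at S2 in WT cells. Its Mst1KO S3 arrays lay close together and above all WT S3 arrays, which spread widely. Emb changed by -2.07 ± 0.24 in Mst1KO and -4.13 ± 0.24 in WT cells, a difference of 2.06 ± 0.34 (adjusted p = 0.0114), but a dimmer probe set of Emb gave -0.051, and the mean of both gave 1.00. Lgals1, galectin-1, a secreted lectin, changed by 0.037 ± 0.089 in Mst1KO and -0.59 ± 0.089 in WT cells, a difference of 0.63 ± 0.13 (adjusted p = 0.0396), called in 2 of the 12 fits (adjusted p up to 0.124).

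Ajuba rose in Mst1KO cells alone. Its product is a LIM protein of cell junctions that binds LATS kinases and restrains them in the Hippo pathway. Ajuba had 7.73, 8.20 and 8.22 at S3 and 5.69, 6.47 and 6.25 at S2 in Mst1KO cells, against 6.52, 6.78 and 6.87 at S3 and 6.87, 6.55 and 7.62 at S2 in WT cells. The Mst1KO arrays were the lower at S2 and the higher at S3. Ajuba changed by 1.92 ± 0.25 in Mst1KO and -0.29 ± 0.25 in WT cells, a difference of 2.20 ± 0.35 (adjusted p = 0.0106). Matn2, matrilin-2 of the extracellular matrix, had 5.41, 5.53 and 5.35 at S3 and 6.66, 6.19 and 6.36 at S2 in Mst1KO cells, against 4.81, 5.59 and 5.19 at S3 and 8.27, 7.65 and 7.54 at S2 in WT cells. Here the genotypes stood apart at S2, where Mst1KO was lower, and overlapped at S3. Matn2 was above its array's median on 2 of the 3 WT S3 arrays, and values near or below the median are compressed. Matn2 changed by -0.97 ± 0.21 in Mst1KO and -2.63 ± 0.21 in WT cells, a difference of 1.65 ± 0.30 (adjusted p = 0.0186), with adjusted p = 0.055 without Mst1KO S2 replicate 2. Sulf2, a sulfatase that trims heparan sulfate outside the cell, had 5.92, 5.67 and 5.33 at S3 and 4.78, 4.70 and 5.04 at S2 in Mst1KO cells, against 8.11, 7.36 and 8.04 at S3 and 5.33, 4.997 and 5.41 at S2 in WT cells. It rose in both genotypes, and the Mst1KO S3 arrays remained far below the WT S3 arrays. Sulf2 was above its array's median on only 1 of the 3 Mst1KO S2 arrays, and values near or below the median are compressed. Sulf2 changed by 0.80 ± 0.22 in Mst1KO and 2.59 ± 0.22 in WT cells, a difference of -1.79 ± 0.31 (adjusted p = 0.0131), with adjusted p = 0.051 without Mst1KO S3 replicate 3.

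**Figure D3:**
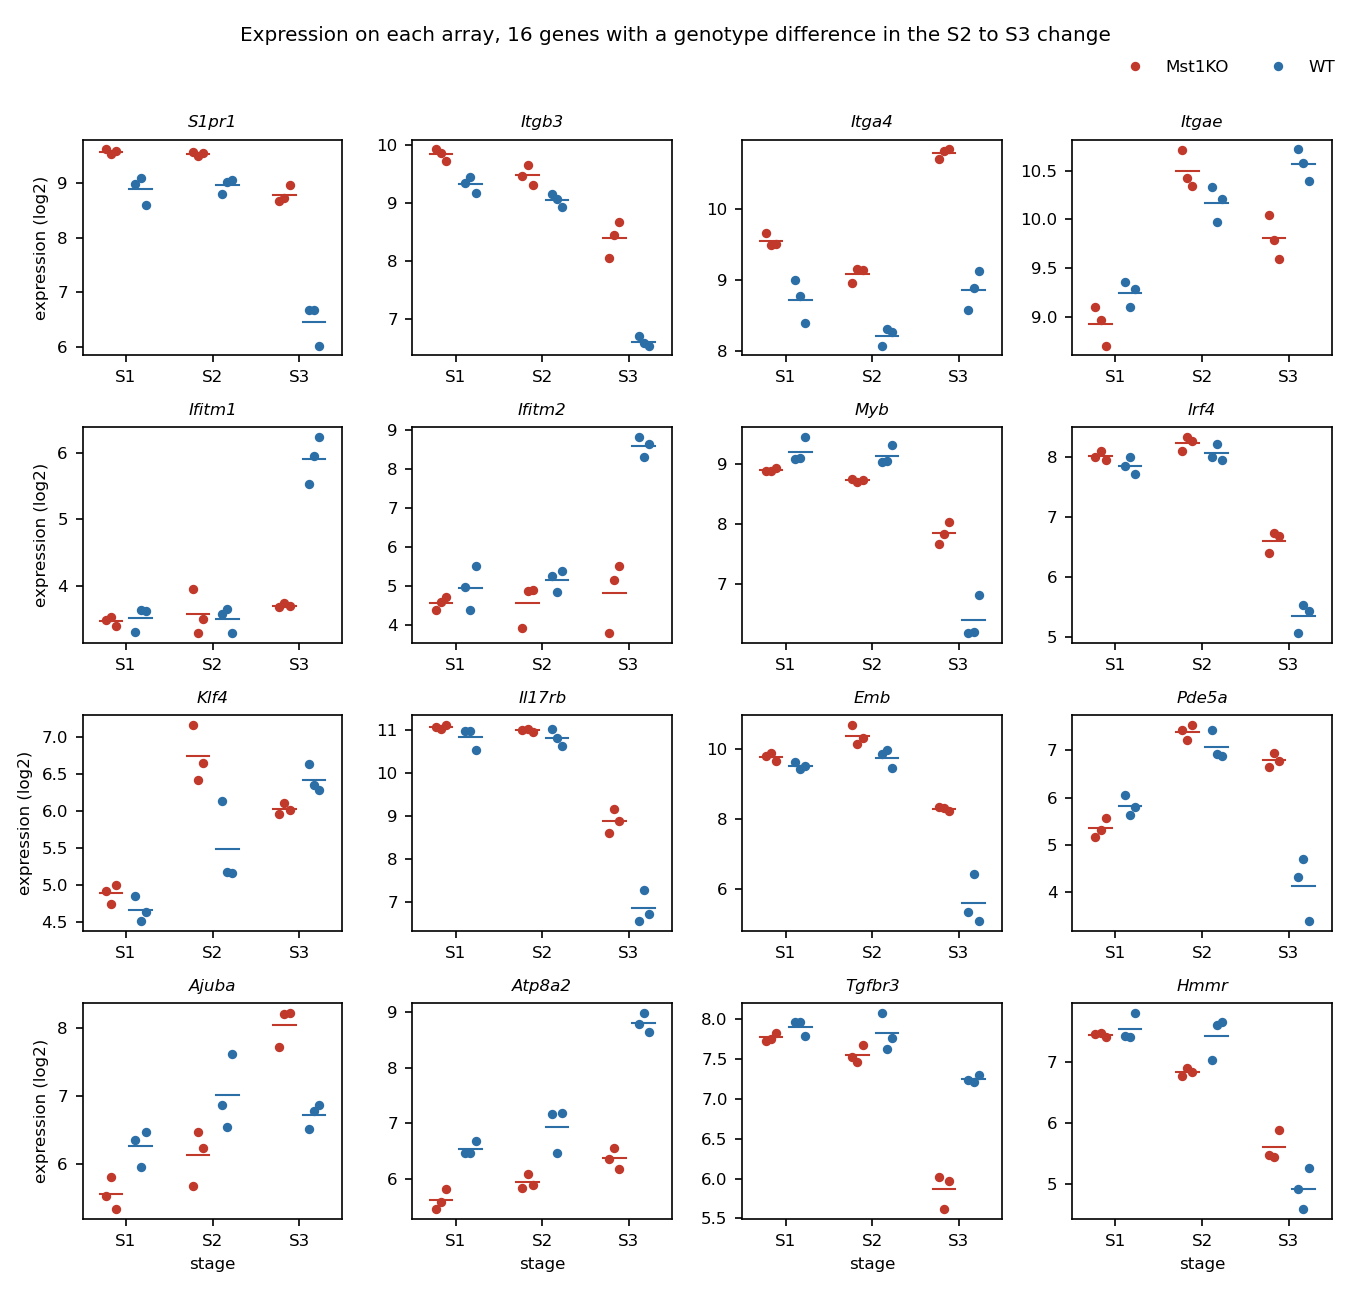
Log2 expression on each array at S1, S2 and S3 for 16 called genes, Mst1KO left of WT within each stage; points are arrays and bars means of 3. S1pr1, Itgb3, Myb, Irf4, Il17rb, Emb and Pde5a are farther apart at S3 than at S2, with Mst1KO arrays the higher at S3, Ifitm1 and Ifitm2 part at S3 with Mst1KO arrays the lower, and Atp8a2 is lower in Mst1KO at both stages and more so at S3.

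Among transcriptional regulators, Myb and Irf4 were called higher and Klf4 and Smad1 lower. Myb, which supports the survival and expansion of immature thymocytes, had 7.67, 7.83 and 8.03 at S3 and 8.75, 8.69 and 8.73 at S2 in Mst1KO cells, against 6.17, 6.19 and 6.81 at S3 and 9.04, 9.04 and 9.32 at S2 in WT cells. Mst1KO arrays lay below WT arrays at S2 and above them at S3. Myb changed by -0.88 ± 0.15 in Mst1KO and -2.74 ± 0.15 in WT cells, a difference of 1.87 ± 0.22 (adjusted p = 0.000821). A second Myb probe set gave -0.029, and the mean of both gave 0.92. Irf4, which T-cell receptor signals induce, had 6.41, 6.75 and 6.69 at S3 and 8.11, 8.33 and 8.27 at S2 in Mst1KO cells, against 5.07, 5.54 and 5.45 at S3 and 8.01, 8.22 and 7.96 at S2 in WT cells. The genotypes overlapped at S2 and were apart at S3, with Mst1KO higher. Irf4 changed by -1.63 ± 0.13 in Mst1KO and -2.72 ± 0.13 in WT cells, a difference of 1.09 ± 0.18 (adjusted p = 0.0114). Of 31 measured regulators of iNKT lineages, Myb and Irf4 were called, against 0.368% of all genes, and 16 had a positive interaction. Zbtb16, which encodes PLZF, was at 0.42 ± 0.16 (adjusted p = 0.333), Tbx21, which encodes T-bet, at 0.32 ± 0.21 (adjusted p = 0.626), Gata3 at -0.032 ± 0.11 (adjusted p = 0.95), and Id3, an inhibitor of E proteins, at 0.77 ± 0.19 (adjusted p = 0.1).

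Klf4, a factor that restrains proliferation of T cells, moved oppositely in the genotypes. It had 5.95, 6.10 and 6.01 at S3 and 7.15, 6.41 and 6.65 at S2 in Mst1KO cells, against 6.62, 6.34 and 6.28 at S3 and 6.13, 5.16 and 5.16 at S2 in WT cells. Mst1KO arrays were the higher at S2 and the lower at S3. Klf4 changed by -0.72 ± 0.22 in Mst1KO and 0.93 ± 0.22 in WT cells, a difference of -1.65 ± 0.31 (adjusted p = 0.0248), called in 6 of the 12 fits (adjusted p up to 0.0776). Smad1, which carries bone morphogenetic protein signals, changed by -0.65 ± 0.11 in Mst1KO and 0.16 ± 0.11 in WT cells, a difference of -0.81 ± 0.15 (adjusted p = 0.0212), called in 8 of the 12 fits (adjusted p up to 0.064). Aff3, a nuclear protein of the AF4 family, changed by -0.53 ± 0.18 in Mst1KO and -1.91 ± 0.18 in WT cells, a difference of 1.38 ± 0.26 (adjusted p = 0.0212), called in 6 of the 12 fits (adjusted p up to 0.0686).

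Receptors were called in both directions. Il17rb, the receptor chain for IL-25 and a mark of NKT2 cells, had 8.62, 9.17 and 8.89 at S3 and 10.998, 11.02 and 10.94 at S2 in Mst1KO cells, against 6.56, 7.29 and 6.73 at S3 and 11.01, 10.81 and 10.62 at S2 in WT cells. All arrays were close together at S2, and at S3 the WT arrays were far the lower. Il17rb changed by -2.10 ± 0.18 in Mst1KO and -3.95 ± 0.18 in WT cells, a difference of 1.86 ± 0.25 (adjusted p = 0.00284). Tlr1, which senses bacterial lipoproteins together with TLR2, had 7.55, 7.62 and 7.89 at S3 and 9.57, 9.67 and 9.75 at S2 in Mst1KO cells, against 5.63, 5.27 and 5.54 at S3 and 8.56, 8.48 and 8.75 at S2 in WT cells. The Mst1KO arrays were higher at both stages, more so at S3. Tlr1 changed by -1.98 ± 0.12 in Mst1KO and -3.12 ± 0.12 in WT cells, a difference of 1.14 ± 0.17 (adjusted p = 0.00636). Tgfbr3, betaglycan, a co-receptor for transforming growth factor beta, had 6.02, 5.62 and 5.97 at S3 and 7.52, 7.46 and 7.68 at S2 in Mst1KO cells, against 7.23, 7.21 and 7.29 at S3 and 8.07, 7.62 and 7.76 at S2 in WT cells. It fell in both genotypes and more in Mst1KO, whose S3 arrays lay below all others. Tgfbr3 changed by -1.68 ± 0.12 in Mst1KO and -0.58 ± 0.12 in WT cells, a difference of -1.11 ± 0.17 (adjusted p = 0.00822). Izumo1r, folate receptor 4, had 10.50, 10.70 and 10.76 at S3 and 10.02, 10.19 and 10.41 at S2 in Mst1KO cells, against 10.02, 10.36 and 10.53 at S3 and 10.72, 10.68 and 10.98 at S2 in WT cells. Mst1KO arrays were the lower at S2, and the genotypes overlapped at S3. Izumo1r changed by 0.45 ± 0.14 in Mst1KO and -0.49 ± 0.14 in WT cells, a difference of 0.94 ± 0.19 (adjusted p = 0.0482), called in 2 of the 12 fits (adjusted p up to 0.138).

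Cd22, an inhibitory receptor best known on B cells, had 4.29, 4.50 and 4.26 at S3 and 4.12, 4.11 and 4.19 at S2 in Mst1KO cells, against 5.44, 5.49 and 5.78 at S3 and 4.74, 4.26 and 3.99 at S2 in WT cells. It rose in WT cells, and its Mst1KO S3 arrays lay below all WT S3 arrays. Only the 3 WT S3 arrays were above their array's median, so Cd22 was tested only through the group in which it was high, and its other values are compressed. Cd22 changed by 0.21 ± 0.14 in Mst1KO and 1.24 ± 0.14 in WT cells, a difference of -1.03 ± 0.20 (adjusted p = 0.0336), called in 4 of the 12 fits (adjusted p up to 0.115). Of 8 B cell markers 3 were measured (Cd22, Ighm and Cd79b), and Cd79a, Ms4a1, Pax5 and Ebf1, which define B cells, stayed below the intensity filter. The mean of the 3 was 6.71, 6.77 and 6.74 at S3 and 6.46, 6.63 and 6.87 at S2 in Mst1KO cells, against 7.01, 7.20 and 7.23 at S3 and 6.78, 6.69 and 6.29 at S2 in WT cells. Ighm was at -0.65 ± 0.21 (adjusted p = 0.232) and Cd79b at 0.25 ± 0.29 (adjusted p = 0.816). The part of other cells in the Cd22 difference was not tested.

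Of the called genes, Hmmr, E2f2, Lmnb1, Neil3 and Lockd were lower at S3 than at S2 in both genotypes, with the smaller fall in Mst1KO. Hmmr is on the mitosis list. The other genes are on no gene list and were grouped here, by ties to the cell cycle, after their values had been seen. Hmmr, a spindle protein and hyaluronan receptor, had 5.48, 5.44 and 5.89 at S3 and 6.77, 6.90 and 6.82 at S2 in Mst1KO cells, against 4.92, 4.58 and 5.26 at S3 and 7.02, 7.60 and 7.65 at S2 in WT cells. Mst1KO arrays were the lower at S2 and the higher at S3. Hmmr changed by -1.23 ± 0.18 in Mst1KO and -2.51 ± 0.18 in WT cells, a difference of 1.27 ± 0.26 (adjusted p = 0.0396), called in 3 of the 12 fits (adjusted p up to 0.127). E2f2, a factor that drives S-phase genes, changed by -1.06 ± 0.12 in Mst1KO and -2.00 ± 0.12 in WT cells, a difference of 0.94 ± 0.17 (adjusted p = 0.0192), called in 8 of the 12 fits (adjusted p up to 0.0615). Like Hmmr, E2f2 was higher in Mst1KO than in WT at S3. The WT S3 values of E2f2 lay below their arrays' medians, where values are compressed. Hmmr was above its array's median on 2 of the 3 WT S3 arrays. Lmnb1, lamin B1 of the nuclear envelope, changed by -0.77 ± 0.13 in Mst1KO and -1.78 ± 0.13 in WT cells, a difference of 1.01 ± 0.19 (adjusted p = 0.0212), called in 9 of the 12 fits (adjusted p up to 0.0759). Neil3, a DNA glycosylase of replicating cells, changed by -1.27 ± 0.15 in Mst1KO and -2.45 ± 0.15 in WT cells, a difference of 1.18 ± 0.22 (adjusted p = 0.0212), called in 5 of the 12 fits (adjusted p up to 0.0697). Lockd, a noncoding RNA transcribed downstream of the cell-cycle inhibitor gene Cdkn1b, changed by -1.31 ± 0.12 in Mst1KO and -2.36 ± 0.12 in WT cells, a difference of 1.05 ± 0.17 (adjusted p = 0.0114). For each of these genes the Mst1KO S3 arrays lay above the WT S3 arrays.

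Of 28 measured mitosis genes 26 had a positive interaction, with a median of 0.77 (0.64 to 0.98), against 49.7% and -0.0022 over all genes. Hmmr was the 1 called, and 19 had an unadjusted p under 0.05, each higher, against 11.2% of all genes with such a p. Of 28 DNA replication genes none was called by limma, although all 28 had a positive interaction (27 under repeated quantile normalization), with a median of 0.49 (0.37 to 0.58) and 16 at an unadjusted p under 0.05. Cdk1, the kinase of mitotic entry, was at 1.16 ± 0.28 (adjusted p = 0.0986) and Gins1, of the replicative helicase, at 1.31 ± 0.31 (adjusted p = 0.0914). The mean of the mitosis genes was 6.09, 6.38 and 6.46 at S3 and 7.78, 8.11 and 8.10 at S2 in Mst1KO cells, against 5.69, 5.68 and 6.32 at S3 and 8.06, 8.28 and 8.53 at S2 in WT cells. WT S3 replicate 3, at 6.32, lay among the Mst1KO S3 arrays and away from the other WT S3 arrays. Without it the median was 0.98, and 10 mitosis genes were called, all higher: Cdk1, Top2a, Ccna2, Bub1b, Nusap1, Prc1, Tpx2, Birc5, Mki67 and Hmmr. The DNA replication genes Mcm3, Gins1, Rrm2 and Uhrf1 were then called higher too. In 9 of the 12 fits that left out 1 array no gene of either list was called. Besides the fit without WT S3 replicate 3, Cdk1, Hmmr and Gins1 were called without WT S2 replicate 1, and Hmmr without Mst1KO S3 replicate 2. Genes of these lists are not independent of each other.

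**Figure D4:**
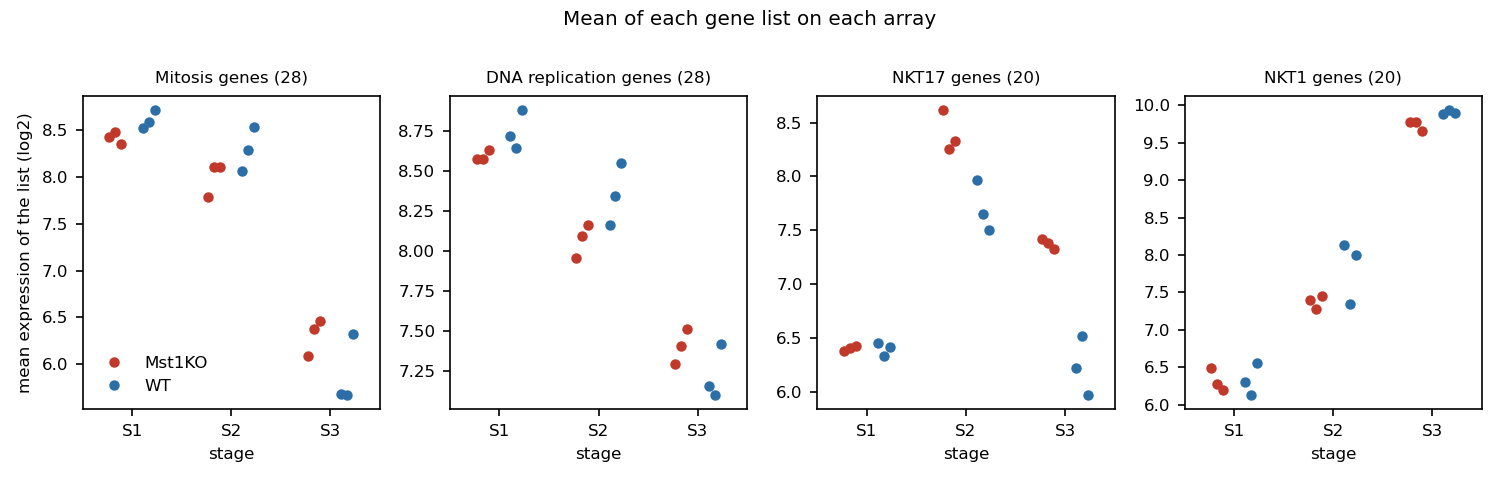
Mean log2 expression over the measured members of 4 gene lists on each array, Mst1KO left of WT within each stage. Mitosis and DNA replication genes are low at S3 in both genotypes with WT S3 replicate 3 near the Mst1KO arrays, NKT17 genes are higher in Mst1KO at both S2 and S3, and NKT1 genes are higher at S3 than at S2 in both.

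Of the NKT1, NKT2 and NKT17 lists, only the NKT2 list held genes called for the S2 to S3 interaction. Among 16 NKT2 genes Il17rb, Emb and Izumo1r were called higher and none lower, against 0.261% and 0.107% of all genes. The list had 13 positive genes and a median of 0.35 (0.24 to 0.43). At an unadjusted p under 0.05, 6 NKT2 genes were higher and 1 lower. Among 20 NKT1 genes none was called by limma, 5 had an unadjusted p under 0.05 (4 higher, 1 lower), and the median was 0.32 (0.21 to 0.44). Over all genes 11.2% had an unadjusted p under 0.05. The interaction of Xcl1, a chemokine gene, was 1.86 ± 0.49 (adjusted p = 0.13), and that of Il12rb2, an IL-12 receptor chain, 1.39 ± 0.47 (adjusted p = 0.236). The Mst1KO minus WT difference of Xcl1 was -0.32 ± 0.34 at S3 and -2.18 ± 0.34 at S2 (adjusted p = 0.703 and 0.00589). That of Il12rb2 was -0.58 ± 0.33 at S3 and -1.97 ± 0.33 at S2 (adjusted p = 0.408 and 0.00808). Of 20 NKT17 genes none was called, with 7 at an unadjusted p under 0.05 (6 higher, 1 lower) and a median of 0.34 (0.22 to 0.47). Il23r, the IL-23 receptor gene, was at 2.56 ± 0.80 (adjusted p = 0.201) and Blk, a Src-family kinase, at 1.82 ± 0.43 (adjusted p = 0.0914), both with a large SE. Without WT S3 replicate 2 Il23r, Blk and Serpinb1a were called higher. Xcl1 was called higher without WT S2 replicate 2, and Slamf6, of the NKT2 list, without WT S3 replicate 3.

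NK receptor genes, 15 measured, had a median of 0.46 (0.28 to 0.64) with none called and 2 at an unadjusted p under 0.05, both lower. The share of all genes at such a p, to set beside each list here, was 11.2%. Of 18 cytotoxic granule genes none was called, 3 had an unadjusted p under 0.05, and the median was -0.0031 (-0.019 to 0.076), which turned to 0.011 when arrays were centred on their medians. Gzma, granzyme A, had 6.11, 5.98 and 6.40 at S3 and 4.54, 4.95 and 5.16 at S2 in Mst1KO cells, against 9.80, 9.58 and 9.42 at S3 and 5.86, 5.54 and 6.34 at S2 in WT cells. The WT S3 arrays lay far above the Mst1KO S3 arrays, without overlap. The interaction of -2.40 ± 0.62, with its SE from the spread over all 18 arrays, was not called (adjusted p = 0.12). Of 21 measured genes of the Hippo pathway list none was called, and 3 had an unadjusted p under 0.05. Ajuba, which was called higher and whose product binds LATS kinases, was not on that list. The median of the list was 0.021 (-0.032 to 0.044), or -0.00061 under repeated quantile normalization. Yap1 was at 0.39 ± 0.15 (adjusted p = 0.318), the kinase gene Lats2 at -0.31 ± 0.17 (adjusted p = 0.537) and Stk38l, an NDR kinase gene, at 1.13 ± 0.38 (adjusted p = 0.234).

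Markers of other cell types were set beside these results. None was called by limma of 12 macrophage and dendritic cell, 6 double-positive thymocyte, 4 gamma-delta T cell and 6 NK and innate lymphoid markers. In that order, unadjusted p-values under 0.05 numbered 3 (1 higher, 2 lower), 2 (1 higher, 1 lower), 2 (both higher) and 4 (all lower). Among all genes the share with such a p was 11.2%. The NK and innate lymphoid markers had 1 positive interaction of 6 and a median of -0.54 (-0.62 to -0.45), and Ncr1, which encodes NKp46, was at -1.28 ± 0.47 (adjusted p = 0.279). Their mean was 7.63, 7.58 and 7.68 at S3 and 6.55, 6.38 and 6.52 at S2 in Mst1KO cells, against 7.60, 7.66 and 7.59 at S3 and 5.91, 5.84 and 6.09 at S2 in WT cells. The Mst1KO arrays were thus higher at S2, while the genotypes overlapped at S3. Of 9 conventional mature T cell markers S1pr1 was the 1 called, 3 were positive and the median was -0.16 (-0.27 to -0.041). The share of such cells in the called differences was not tested.

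**Figure D5:**
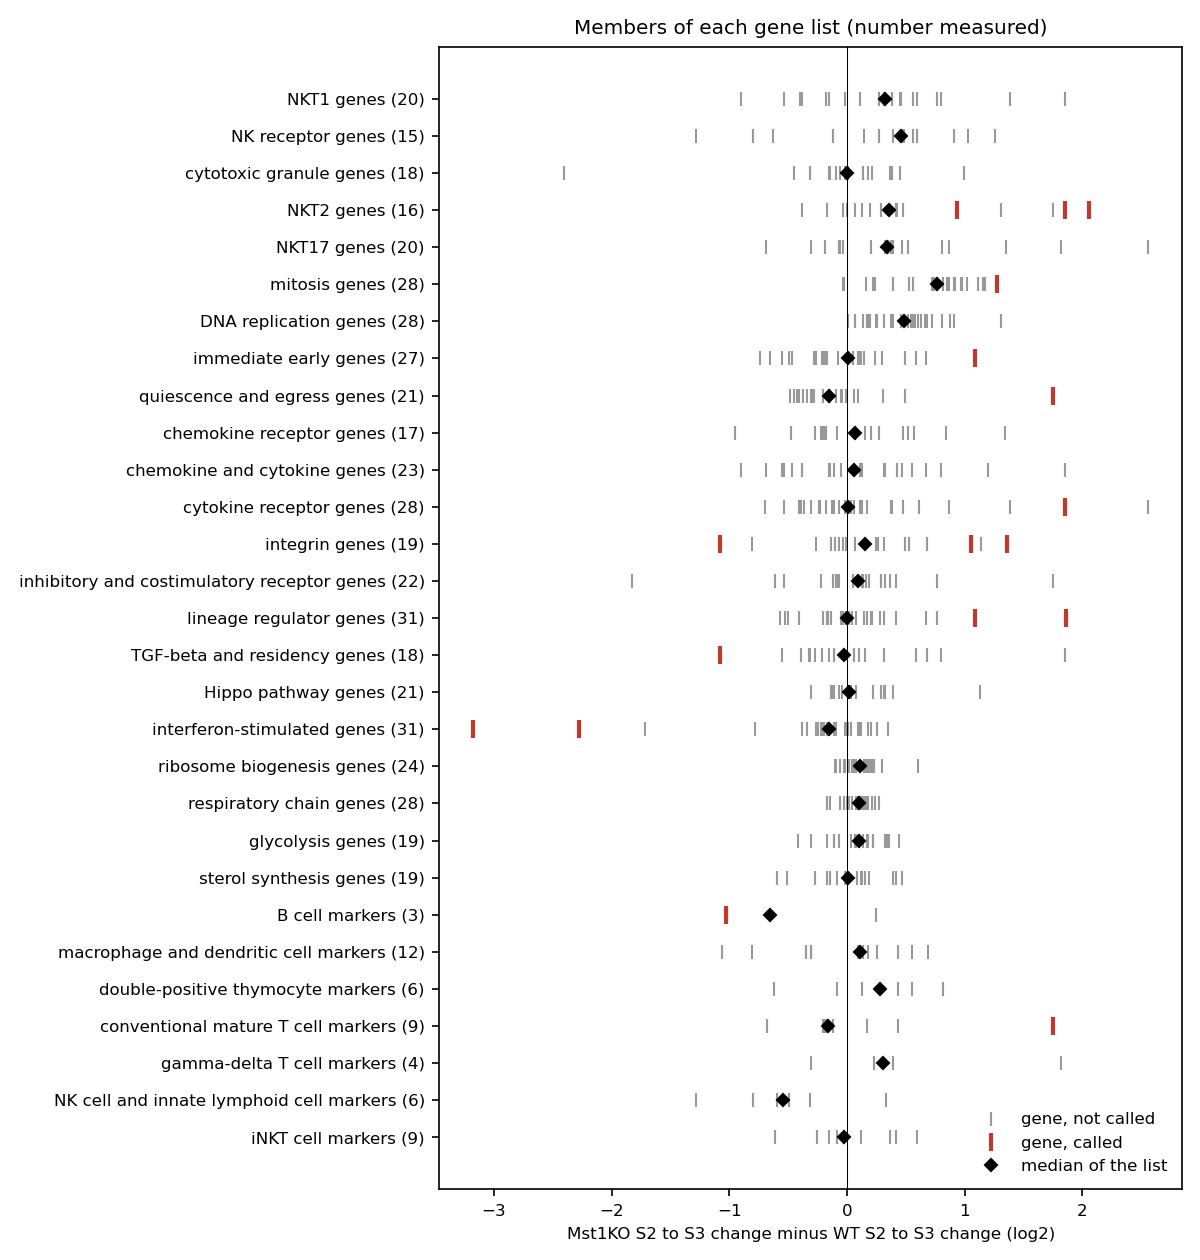
Each tick is the interaction of 1 gene (log2, Mst1KO change minus WT change), red where called, in rows of 22 gene lists and 7 marker lists, with the median as a diamond and the number measured in brackets. The mitosis and DNA replication lists lie almost wholly above 0, and the other medians lie between -0.65 and 0.46.

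The remaining called genes act in signalling, metabolism and RNA or protein handling. Pde5a, which breaks down cyclic GMP, had 6.65, 6.94 and 6.78 at S3 and 7.42, 7.23 and 7.53 at S2 in Mst1KO cells, against 4.32, 4.71 and 3.39 at S3 and 7.43, 6.92 and 6.88 at S2 in WT cells. The genotypes overlapped at S2, and at S3 each WT array lay far below the Mst1KO arrays. The WT S3 values of Pde5a lay below their arrays' medians, where values are compressed. Pde5a changed by -0.60 ± 0.25 in Mst1KO and -2.94 ± 0.25 in WT cells, a difference of 2.34 ± 0.35 (adjusted p = 0.00636). Atp8a2, a flippase that moves phosphatidylserine across membranes, had 6.36, 6.56 and 6.18 at S3 and 5.84, 6.09 and 5.89 at S2 in Mst1KO cells, against 8.80, 8.99 and 8.65 at S3 and 7.18, 6.46 and 7.18 at S2 in WT cells. Mst1KO arrays were lower at both stages, with the wider gap at S3. Atp8a2 changed by 0.43 ± 0.17 in Mst1KO and 1.87 ± 0.17 in WT cells, a difference of -1.45 ± 0.24 (adjusted p = 0.0114). Rubcnl, a regulator of autophagosome maturation, changed by -0.15 ± 0.13 in Mst1KO and 1.39 ± 0.13 in WT cells, a difference of -1.54 ± 0.19 (adjusted p = 0.00115), with Mst1KO arrays the higher at S2 and the lower at S3. Lgmn, the lysosomal protease legumain, changed by -1.23 ± 0.16 in Mst1KO and -2.55 ± 0.16 in WT cells, a difference of 1.32 ± 0.23 (adjusted p = 0.0154), with adjusted p = 0.0583 without Mst1KO S3 replicate 3.

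Genes of metabolism and transport were also called. Chdh, choline dehydrogenase of mitochondria, changed by -1.84 ± 0.14 in Mst1KO and -2.93 ± 0.14 in WT cells, a difference of 1.09 ± 0.20 (adjusted p = 0.0212), called in 7 of the 12 fits (adjusted p up to 0.068). Nipal1, a magnesium transporter, changed by -1.32 ± 0.14 in Mst1KO and -2.55 ± 0.14 in WT cells, a difference of 1.24 ± 0.20 (adjusted p = 0.0114). Rexo2, an RNA exonuclease of mitochondria, changed by -0.59 ± 0.088 in Mst1KO and -1.33 ± 0.088 in WT cells, a difference of 0.75 ± 0.13 (adjusted p = 0.0114). In these 3 genes the Mst1KO S3 arrays lay above the WT S3 arrays. Acot7, an acyl-CoA thioesterase, rose in Mst1KO and fell in WT: it had 7.33, 7.55 and 7.39 at S3 and 7.17, 6.98 and 6.98 at S2 in Mst1KO cells, against 6.92, 6.73 and 7.06 at S3 and 7.30, 7.38 and 7.37 at S2 in WT cells. Mst1KO arrays were the lower at S2 and the higher at S3, and the difference was 0.83 ± 0.14 (adjusted p = 0.0131). Mcfd2, a cargo receptor subunit between the endoplasmic reticulum and the Golgi, changed by -0.21 ± 0.11 in Mst1KO and 0.75 ± 0.11 in WT cells, a difference of -0.95 ± 0.16 (adjusted p = 0.0131), with Mst1KO the higher at S2 and the lower at S3.

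The remaining called genes were of varied function. Ddx43, an RNA helicase gene, changed by 1.03 ± 0.10 in Mst1KO and 0.073 ± 0.10 in WT cells, a difference of 0.96 ± 0.14 (adjusted p = 0.00636) and was called lower in Mst1KO at S2 and not at S3. Sae1, a subunit of the SUMO-activating enzyme, had an interaction of 0.89 ± 0.17 (adjusted p = 0.0294), St13, an Hsp70 co-chaperone, of 0.73 ± 0.15 (adjusted p = 0.0433) and Usp53, of the ubiquitin peptidase family, of 0.86 ± 0.17 (adjusted p = 0.0354). These 3 fell in WT and were not called in Mst1KO, and they held in 6 of the 12, 3 of the 12 and 4 of the 12 fits, with adjusted p up to 0.108, 0.126 and 0.115. Dnah8, a dynein heavy chain gene, changed by -0.21 ± 0.17 in Mst1KO and -1.58 ± 0.17 in WT cells, a difference of 1.36 ± 0.25 (adjusted p = 0.0192), called in 7 of the 12 fits (adjusted p up to 0.0626). Mpp4, a membrane scaffold gene of the guanylate kinase family, changed by 0.11 ± 0.16 in Mst1KO and -1.18 ± 0.16 in WT cells, a difference of 1.30 ± 0.23 (adjusted p = 0.0186), called in 8 of the 12 fits (adjusted p up to 0.0662). The WT S3 values of Mpp4 lay below their arrays' medians, where values are compressed. The transcript 1700027F09Rik had 5.57, 5.23 and 4.91 at S3 and 2.96, 3.15 and 3.51 at S2 in Mst1KO cells, against 3.27, 3.44 and 3.51 at S3 and 3.14, 3.002 and 3.40 at S2 in WT cells, so that only the Mst1KO S3 arrays stood above the dim rest and above their array's median. It was tested only through that group, and with the other values compressed the difference was 1.80 ± 0.26 (adjusted p = 0.00551). For 1600014C10Rik the difference was -0.75 ± 0.15 (adjusted p = 0.0396), in 3 of the 12 fits with adjusted p up to 0.114. Rprl2, a ribonuclease P RNA-like gene, was at -0.71 ± 0.14 (adjusted p = 0.0375), in 3 of the 12 fits with adjusted p up to 0.112.

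Probe sets with the symbols of 2 microRNA genes were called. Mir1929, on chromosome 10, had 6.68, 5.95 and 6.97 at S3 and 5.22, 5.51 and 5.39 at S2 in Mst1KO cells, against 5.89, 5.56 and 5.49 at S3 and 6.89, 6.10 and 6.93 at S2 in WT cells. It rose in Mst1KO and fell in WT cells, with Mst1KO arrays the lower at S2 and the higher at S3. Mir1929 changed by 1.16 ± 0.25 in Mst1KO and -0.99 ± 0.25 in WT cells, a difference of 2.16 ± 0.35 (adjusted p = 0.0114). Mir665, on chromosome 12, had 5.38, 5.23 and 5.36 at S3 and 5.90, 5.79 and 5.72 at S2 in Mst1KO cells, against 6.18, 5.89 and 5.99 at S3 and 5.66, 5.82 and 5.71 at S2 in WT cells. The genotypes overlapped at S2, and at S3 the Mst1KO arrays were the lower. Mir665 changed by -0.48 ± 0.11 in Mst1KO and 0.29 ± 0.11 in WT cells, a difference of -0.77 ± 0.15 (adjusted p = 0.0319), called in 4 of the 12 fits (adjusted p up to 0.0925). The mature arms are given, from RefSeq (GRCm38.p6), with the seed, bases 2 to 8, in capitals, since the seed sets which messages a microRNA pairs with. The 4 seeds differ, and the arrays give no level of either mature arm.
mmu-miR-1929-5p: uUCUAGGAcuuuauagagcagag
mmu-miR-1929-3p: cAGCUCAUggagaccuaggugg
mmu-miR-665-5p: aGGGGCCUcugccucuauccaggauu
mmu-miR-665-3p: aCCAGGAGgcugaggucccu

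At S1, where 43 genes (0.33%) were called between the genotypes, 34 higher (0.261%) and 9 lower (0.0691%) in Mst1KO, 5 of the 48 were among them. Itga4 was higher in Mst1KO by 0.83 ± 0.15 and Tlr1 by 0.99 ± 0.12 at S1, the direction both had at S2 and S3. Matn2 was at -2.26 ± 0.21, Atp8a2 at -0.93 ± 0.17 and Ddx43 at -0.61 ± 0.10, the direction each had at S2. For the other 43 called genes the S1 genotype difference was not called. S1 arrays share no sample with the interaction except through the common estimate of spread, the gene filter and the choice of probe set.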

How the data were processed

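Thymic iNKT cells of 6 groups were measured on 18 Affymetrix arrays. The authors deposited log2 values, for which the submitters' processing notes name RMA and Affymetrix Expression Console 1.1. This method corrects background, normalizes between arrays and summarises probes. The number of arrays limits the precision. Of 41345 probe sets, 23521 carried 1 symbol in the platform annotation, 1814 several and 16010 none. Those with 1 symbol that lay above their array's median on at least 3 of 18 arrays (13702) were kept, and the brightest stood for each of 513 genes with several. All 48 called symbols matched the RefSeq table (GRCm38.p6), which gave names and sequences.

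Limma 3.58.1 (R 4.3.3) fitted a mean per group over all 18 arrays (12 residual degrees of freedom), with Benjamini-Hochberg adjustment over 13034 genes. The design used no replicate block. Over the 45 same-numbered pairs of arrays, within and across genotypes, r of their deviations ran from -0.067 to 0.206. In 0 pairs of groups was every r over 0.1. Same-numbered S3 and S2 arrays had r of 0.051 to 0.118 in Mst1KO and -0.015 to 0.080 in WT. Those of WT S2 and S1 had 0.094, 0.142 and 0.206. These values do not settle whether a number marks an animal, and the main fit did not take numbers as pairs. On simulated data with independent noise 5.56% of calls were unchanged genes, a share that need not hold for these arrays.

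The question, the gene lists (22 by function, 7 of markers) and the tests were chosen with earlier results of these data known. The naming rule took Stk4, the largest and most certain called genes, those of each class and the leading list members. It covered 37 of the 48, and Tns4, Nipal1, Neil3, Chdh, Lockd, Lmnb1, E2f2, Sae1, Usp53, Rexo2 and St13 were chosen after their values had been seen. The S1 comparison of called genes and the list values without single arrays were added after seeing the data. Alternatives covered the filter, normalization, variance model, array weights, probe sets, a fold threshold, arrays in the fit, blocks and single arrays left out. Figures were made in Python 3.11.15 (pandas 2.3.3, matplotlib 3.10.9).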

Additional observations from a re-analysis of the deposited data

Results flagged for a closer look

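Each of the 48 called genes stands here because its S2 to S3 change differed between Mst1KO and WT in the test of the difference itself, and the adjusted p of that limma test follows each gene: Ifitm1 (0.000585), Pdlim1 (0.000585), Myb (0.000821), Rubcnl (0.00115), S1pr1 (0.00191), Il17rb (0.00284), Itgb3 (0.00551), 1700027F09Rik (0.00551), Pde5a (0.00636), Ddx43 (0.00636), Tlr1 (0.00636), Tgfbr3 (0.00822), Ajuba (0.0106), Mir1929 (0.0114), Nipal1 (0.0114), Ifitm2 (0.0114), Lockd (0.0114), Atp8a2 (0.0114), Emb (0.0114), Rexo2 (0.0114), Irf4 (0.0114), Mcfd2 (0.0131), Acot7 (0.0131), Sulf2 (0.0131), Tns4 (0.0154), Lgmn (0.0154), Mpp4 (0.0186), Matn2 (0.0186), E2f2 (0.0192), Dnah8 (0.0192), Chdh (0.0212), Neil3 (0.0212), Aff3 (0.0212), Lmnb1 (0.0212), Smad1 (0.0212), Klf4 (0.0248), Itgae (0.0272), Sae1 (0.0294), Mir665 (0.0319), Itga4 (0.0336), Cd22 (0.0336), Usp53 (0.0354), Rprl2 (0.0375), Hmmr (0.0396), 1600014C10Rik (0.0396), Lgals1 (0.0396), St13 (0.0433) and Izumo1r (0.0482). No explanation was weighed for any of them. Of the 48, 34 had the higher change in Mst1KO and 14 the lower. The smallest adjusted p belonged to Ifitm1 and Pdlim1. Ifitm1, Cd22 and 1700027F09Rik were tested only through the group in which each was high, so their p-values carry that limit.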

How the results depend on the processing

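The direction of the interaction of all 48 called genes was the same under every alternative in which the gene was tested. With the replicate number as a block 59 genes were called, 46 of them among the 48 (Cd22 and Itga4 were not); with the block within genotype 63 were called, 40 of them among the 48, while the S3 genotype difference had 202 calls and the S2 one 33; as a random block 49 were called at a consensus correlation of 0.037. With only the S2 and S3 arrays 10 genes were called higher and 5 lower, with 261 calls for genotype at S3 and 95 at S2. An added 1.5-fold threshold left 0 higher (92 genes of either sign at an unadjusted p under 0.05) and 1 lower in limma, and 327, 525, 38 and 0 calls for the Mst1KO stage change, the WT stage change, the S3 and the S2 genotype difference. The S2 genotype count was 248 with a variance trend and robust fit and 97 with array weights. Calls of the interaction numbered 41 without the filter and 60 under a stricter one. The median turned difference of genes called in WT was -0.24 without a filter and -0.18 under the stricter one, and that of genes called in Mst1KO 0.0069 under the stricter one. The 12 fits that each left out 1 array gave 19 to 65 genes higher and 6 to 28 lower, 200 to 445 calls for genotype at S3 and 39 to 160 at S2, a slope of 0.78 to 0.87, and medians of -0.27 to -0.21 (called in WT), 0.012 to 0.086 (in Mst1KO) and -0.15 to -0.052 (in both). Lower calls were 9 without WT S2 replicate 2 and without Mst1KO S3 replicate 1. The S3 count was 200 without Mst1KO S3 replicate 3, 239 without its replicate 1, 255 without its replicate 2 and 289 without WT S3 replicate 1; the S2 count was 39 without Mst1KO S2 replicate 1 and 72 without WT S2 replicate 3. The uncalled interaction of Stk4 ran from -0.16 to 0.037 and was above 0 in 4 of these fits (0.0062, 0.037, 0.00050 and 0.0060). The cause of these changes was not tested. With 3 arrays a group, differences well under 1 were seldom recovered in simulation, and dim probe sets near the array medians compress changes.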

Other observations

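Probe sets outside the gene table were tested apart. Of 8443 with no gene symbol that passed the filter, 1 was called higher and 0 lower in the limma interaction, and 595 had an unadjusted p under 0.05. Of 1021 with several symbols none was called, and 96 had an unadjusted p under 0.05.

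Lists of respiratory chain, ribosome biogenesis, glycolysis and sterol synthesis genes held no called gene. Brackets after a median give its range over the 12 fits that each left out 1 array. An unadjusted p under 0.05 was found for 11.2% of all genes. Of 28 respiratory chain genes none was called and none had an unadjusted p under 0.05, with 23 positive, a median of 0.11 (0.053 to 0.13) and a range from -0.17 to 0.27. Of 24 ribosome biogenesis genes none was called and 2 had an unadjusted p under 0.05, with 19 positive and a median of 0.11 (0.071 to 0.16). Glycolysis genes, 19 measured, had a median of 0.10 (0.025 to 0.17) with none called and 2 at an unadjusted p under 0.05, and 19 sterol synthesis genes 0.013 (-0.10 to 0.061) (-0.025 under repeated quantile normalization) with none called and 1 at an unadjusted p under 0.05. Immediate early genes, which T-cell receptor signals induce, had Irf4 called among 27, 14 positive and a median of 0.0053 (-0.15 to 0.053), or -0.018 under repeated quantile normalization. Cytokine receptor genes had Il17rb called among 28 and a median of 0.0077 (-0.093 to 0.086), or -0.030 under that normalization. Lineage regulators had a median of 0.00089 (-0.0073 to 0.07), or -0.053 under it. At an unadjusted p under 0.05, 5 of the 27 immediate early genes were higher and 3 lower. Of the 28 cytokine receptor genes 6 were higher and 4 lower at such a p, and of the 31 lineage regulators 5 and 1.

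The lists of chemokine receptors (17 measured), chemokines and cytokines (23) and inhibitory and costimulatory receptors (22) had none called, 5, 6 and 6 genes at an unadjusted p under 0.05, and medians of 0.065 (-0.08 to 0.16), 0.064 (-0.012 to 0.13) and 0.090 (0.030 to 0.14). Such a p was found for 11.2% of all genes. Csf1, a growth factor for macrophages, was at 1.20 ± 0.28 (adjusted p = 0.0914), and Tigit, an inhibitory receptor, at -1.83 ± 0.49 (adjusted p = 0.139). Csf1 was called higher without WT S3 replicate 1 and without Mst1KO S2 replicate 2, and Tigit lower without WT S3 replicate 2. Of the immediate early genes, Egr2 and Nr4a1 were called higher without WT S3 replicate 3, and Nr4a2 lower without WT S3 replicate 1. Among 18 genes of the transforming growth factor beta and tissue residency list Itgae was called, with a median of -0.024 (-0.15 to 0.11). At an unadjusted p under 0.05, 3 of the 18 were higher and 3 lower. Tgfbr3, which was called lower, was not on that list. The 9 iNKT markers had a median of -0.028 (-0.058 to 0.035) and none called, with 4 at an unadjusted p under 0.05. Medians were 0.12 (0.019 to 0.17) for macrophage and dendritic cell markers, 0.28 (0.15 to 0.39) for double-positive thymocyte markers and 0.31 (0.24 to 0.38) for gamma-delta T cell markers.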
